A study of Homo sapiens with 40 samples.

Results

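FIP1L1, CPSF6 and CSTF3 encode subunits of the machinery that cuts a nascent messenger RNA and adds its poly(A) tail. All lines filed under these 3 gene names were taken from a catalogue of transcript models built from long reads, which gave 18 models of 19972 in all and 3 genes of 9460. FIP1L1 (ENSG00000145216) had 9 models on the plus strand of chromosome 4, from 53377641 to 53459671. CPSF6 (ENSG00000111605) had 4 on the plus strand of chromosome 12, from 69239572 to 69270122. CSTF3 (ENSG00000176102) had 5 on the minus strand of chromosome 11, from 33084588 to 33161485. These positions are on GRCh38.

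The study asked which full-length mRNA isoforms are found on ribosomes as stem cells become neural. It used H9, an established line of human embryonic stem cells (ESC), and neural progenitor cells (NPC) made from H9 by dual-SMAD inhibition, the standard block of BMP and TGF-beta signalling. Both were separated into a cytosol, a monosome, a light polyribosome (2 to 4 ribosomes) and a heavy polyribosome (5 or more ribosomes) fraction, and poly A+ RNA was sequenced in 16 long-read libraries, 2 for each of the 8 groups, and 24 short-read libraries, 3 for each group. All of the cells come from 1 line. The catalogue gives where exons and coding regions lie, without any amount in a library, so NPC are not compared with ESC here, nor 1 fraction with another. In the catalogue 6 of 8 stem cell markers had a model, among them POU5F1 and NANOG but not SOX2 or LIN28A. Of 8 neural progenitor markers 5 had a model, among them PAX6 and NES but not SOX1, LHX2 or HES5. Of 7 genes listed as markers of other cell types 3 had a model (COL1A1, THY1 and PDGFRA). Whether these genes are limited to other cell types was not tested, so their models do not show that such cells were present. The share over all genes is not given here, so these counts are not compared. A model does not show which cells or libraries it came from.

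Formation of an mRNA's 3′ end needs several complexes that meet on the RNA. FIP1L1 is a subunit of the cleavage and polyadenylation specificity factor CPSF, which reads the poly(A) signal; it binds U-rich RNA and poly(A) polymerase, and in mouse embryonic stem cells its loss changes poly(A) site choice and impairs self-renewal. CPSF6 is the larger partner of NUDT21 in cleavage factor I, which binds UGUA upstream of the cleavage site and favours distal sites. CSTF3 is the scaffold of the cleavage stimulation factor CstF and holds the subunit that binds the U- and GU-rich element downstream of the site. The vertebrate CSTF3 gene is itself known for a poly(A) site inside an early intron, whose use is taken to limit the amount of full-length CSTF3 mRNA.

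The models of each gene began close together. The 30 bases that begin at the most upstream first base of each gene's models are shown because all first bases of the gene fall within them; capitals mark the bases at which at least 1 model begins. The sequences are RefSeq's, assembly GRCh38.p14, 5′ to 3′ on the gene's strand, at chr4:53377641-53377670 (plus) for FIP1L1, chr12:69239572-69239601 (plus) for CPSF6 and chr11:33161456-33161485 (minus) for CSTF3.
FIP1L1: GcGcatgcgcagacGgacctgcGctggagg
CPSF6: AgatccgctgctgcTgccgcggcgggcaGa
CSTF3: AttttAattcatatttgagtgggcggtggc
Of the 9 FIP1L1 models 6 began at the same base, 53377641, which is also the first base of the gene in RefSeq, and the others 2, 14 and 22 nt further on. In CSTF3, 4 of 5 models began at 33161480, again RefSeq's first base, and model 2 began 5 nt upstream of it. CPSF6 models began 3, 17 and 31 nt after RefSeq's first base, the last position being shared by 2 models. Each gene used 1 first exon and 1 start codon position throughout its coding models. The deposited 5′ untranslated regions therefore differed only in their first bases, with lengths of 176 to 198 nt in FIP1L1, 47 to 61 nt in CPSF6 and 155 to 160 nt in CSTF3.

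FIP1L1 had 9 models that differed inside the protein and almost nowhere else. All 9 were coding, with 1 start at 53377839, 1 stop at 53459449 and the same 13 internal exons, and each combined these with a different selection of 4 cassette exons. An exon was called cassette where some model splices straight from the donor before it to the acceptor after it. At least 9 models were found for 1.15% of the 9470 gene loci, and for 0.479% of the 835 loci whose largest model has at least 16 exons; FIP1L1 models had 16 to 18. RefSeq's table lists 47 curated mRNAs of FIP1L1, against 2 of CPSF6 and 3 of CSTF3.

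The 4 FIP1L1 cassette exons were 45, 69, 108 and 27 nt long in transcript order, and each length is divisible by 3. The exon of 45 nt (53379073 to 53379117) was held by 3 models and skipped by 6. It follows 85 coding nt and lies 107 nt upstream of the next exon, in a region of 1301 nt that is otherwise removed as 1 intron. The exon of 69 nt (53391430 to 53391498) was held by 5 models and skipped by 4, and lies 290 nt after the preceding exon at the start of an intron of 8590 nt. The exon of 108 nt (53414615 to 53414722) was held by the most models, 6, and skipped by 3, which is no measure of how often it is included. It sits in the middle of an intron of 26032 nt, 14775 nt from the exon before and 11149 nt from the exon after it. The exon of 27 nt (53440582 to 53440608), a microexon of 9 codons, was held by 5 models and skipped by 4, and lies in an intron of 14469 nt. Such short exons were rare, since 1.41% of the catalogue's 2133 coding cassette exons had at most 27 nt.

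**Figure D1:**
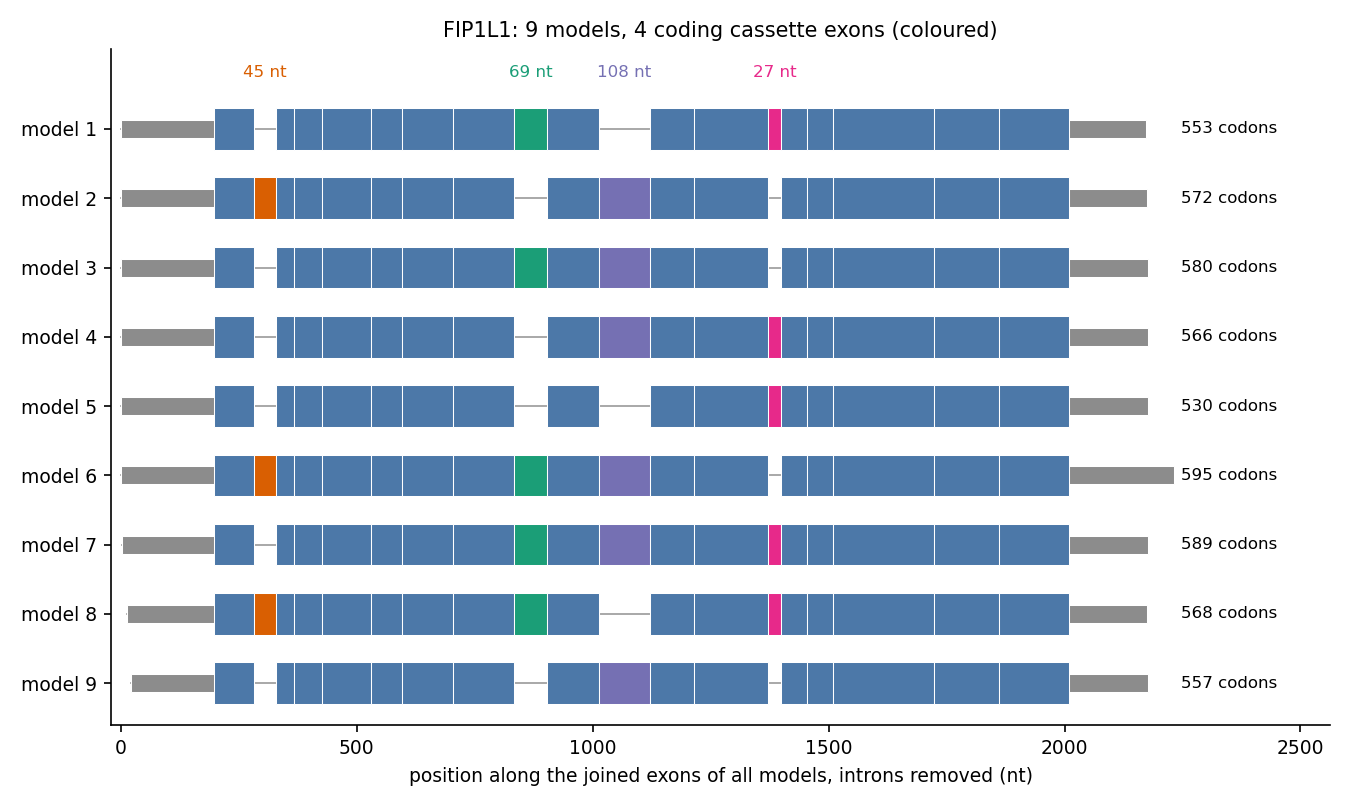
The 9 FIP1L1 models (rows) along the joined exons of all models with introns removed (x axis, nt), drawn to scale. Tall boxes are coding and low boxes untranslated; the 45, 69, 108 and 27 nt cassette exons are coloured, a thin line marks an exon that is skipped, and the number of codons at the right ranges from 530 to 595.

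The selections ran from 1 to 3 of the 4 exons per model. Model 5 held the 27 nt exon alone and had the shortest coding region, 530 codons, counting the last codon. Model 9 held the 108 nt exon alone, with 557 codons. Models 1, 2, 3 and 4 held a pair each: 69 and 27 nt in model 1 (553 codons), 45 and 108 nt in model 2 (572 codons), 69 and 108 nt in model 3 (580 codons), and 108 and 27 nt in model 4 (566 codons). The remaining 3 models held 3 exons. Model 6 had all but the 27 nt exon and the longest coding region, 595 codons, model 7 all but the 45 nt exon (589 codons), and model 8 all but the 108 nt exon (568 codons). Neither a model with all 4 exons nor a model with none was in the catalogue.

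Of the 16 combinations that 4 exons allow, 9 were present and 7 were not. That no combination occurred more than once follows from the catalogue, in which every model has its own chain of introns, and says nothing of how abundant each form was. Among 412 gene loci with at least 2 coding cassette exons, 3 (0.728%) had 9 combinations, the highest number found; the other two were SLC2A8, a glucose transporter gene, and PHYHD1. A gene needs 9 models to show 9 combinations, and of the 53 loci with at least 9 models and at least 2 coding cassette exons these 3 are 5.66%. Of the 6 pairs of FIP1L1 cassette exons, 5 were seen in all 4 forms (both, either alone, neither), against 133 of 711 pairs (18.7%) over all genes and 50 of 166 pairs (30.1%) in loci with at least 9 models. The number of models limits this count, since 4 models are the fewest that can show all 4 forms. In FIP1L1 the 9 models had to be 9 different combinations, because they differ in no other splice. At least 3 of the 4 forms in every pair follow from that alone. FIP1L1's own 6 pairs are also counted in both shares, so no trait of its exons is read from this contrast. The pair not seen in all 4 forms was that of 108 and 27 nt. Both were present in 2 models, the 108 nt exon alone in 4, the 27 nt exon alone in 3, and no model lacked both. With 9 models the missing form was not tested.

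The 4 cassette exons differed from the exons common to all models in whether their length is divisible by 3. Of the 13 internal exons common to all FIP1L1 models, 2 have a length divisible by 3, against 4 of the 4 cassette exons. Skipping any cassette exon left the frame and the stop codon in place. The 9 coding regions share 1563 coding nt, while the cassette exons together hold 249 nt or 83 codons. Because all 9 models share a single start and a single stop and differ in no other splice, each cassette length had to be divisible by 3. The lengths were also known when the genes were selected, so this contrast is a description. The 69 nt exon begins between whole codons; the exons of 45, 108 and 27 nt begin inside a codon. A single start and a single stop with at least 2 coding regions were found in 14.8% of 4067 gene loci with at least 2 coding models, and at least 9 coding regions, which need at least 9 models, in 0.443%.

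All FIP1L1 models ended in 1 last exon, which starts at 53459302. Their last bases fell at 5 positions. Of the 9 models 8 ended between 53459611 and 53459616, 4 of these at 53459615, and model 6 ended at 53459671. The 3′ untranslated regions were accordingly 162 to 167 nt in 8 models and 222 nt in model 6, where the median over all coding models was 429 nt. These ends lie 1191 to 1251 nt before the end of the gene in RefSeq. No FIP1L1 model ended inside an intron of another, while 25.5% of the 4728 gene loci with at least 2 models had such a model.

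CPSF6 had 3 coding models that shared their start (69239647) and their stop (69262559) and differed in 2 places inside the protein. At least 4 models, the number of CPSF6, were found for 14.5% of the 9470 gene loci. The first difference was a cassette exon of 111 nt (69258035 to 69258145), which adds 37 codons. It was present in model 3 alone, with 589 codons, and skipped in models 2 and 4, with 553 and 552 codons. The exon lies 129 nt after the preceding and 444 nt before the following exon, in an intron of 684 nt. It is by far closer to its neighbours than the FIP1L1 exons of 108 and 27 nt. The FIP1L1 exons of 45 and 69 nt also lie near 1 neighbour, at 107 and 290 nt. The 111 nt exon begins inside a codon, after 694 coding nt. A longer form of the CPSF6 protein made by inclusion of an additional exon is known.

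The second difference was a pair of acceptor sites 3 nt apart at the penultimate exon. Model 2 used 69262370 as the first base of that exon, and models 3 and 4 used 69262373, which is the difference of 1 codon between models 2 and 4. Acceptors 3 nt apart behind 1 donor were found in 6.01% of the gene loci with at least 2 models. The 111 nt exon was seen with the downstream acceptor, and its absence with either acceptor.

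**Figure D2:**
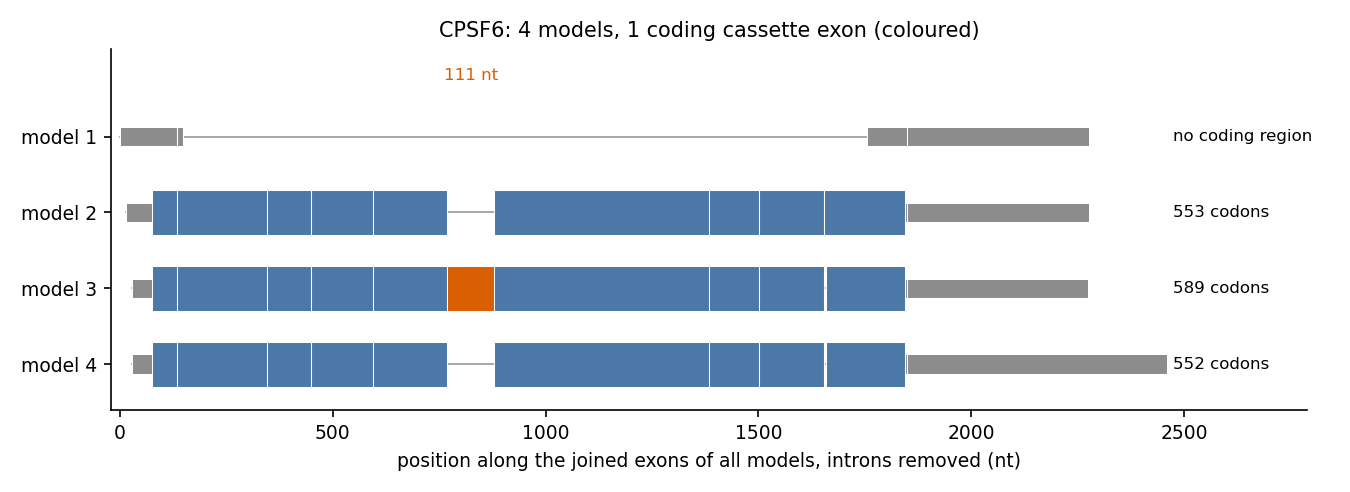
The 4 CPSF6 models (rows) along their joined exons with introns removed (x axis, nt), to scale, with tall coding and low untranslated boxes. The 111 nt cassette exon (coloured) is in model 3 alone; model 1 lacks most of the internal exons and has no coding region.

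The stop of all 3 coding CPSF6 models lay 3 nt upstream of the last junction, so that the final exon is untranslated throughout. Stops upstream of the last junction at any distance were found in 7.27% of the 17247 coding models. The final exon began at 69269512 in all 4 models and was the only last exon. It ended at 69269937 or 69269939 in 3 models and 183 nt further, at 69270122, in model 4, which gave 3′ untranslated regions of 429, 431 and 614 nt. RefSeq's gene extends 4236 to 4421 nt beyond these ends. The longest model of the whole catalogue was 5877 nt, and the longest of CPSF6 was 2317 nt. Whether a limit on model length bears on these ends was not tested.

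CPSF6 model 1 stood apart from the other models of the gene. It had 4 exons and 670 nt and no coding region, as had 13.6% of all models. Its second exon kept the first 13 of 210 nt and was joined across 11327 nt to a position inside the penultimate exon, 99 nt after the first acceptor, and 6 whole exons of model 2 lie in that intron. In all, 1495 nt of the internal exons of model 2 were missing. It kept the usual first exon and the usual final exon, with its end at 69269939. The bases at this junction were not analysed here, and whether it has the letters of a splice site was not tested.

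CSTF3 was the gene of the 3 with intronic 3′ ends. Of its 5 models, 1 ran through the whole gene and 4 ended inside the third intron. At least 5 models were found for 8.04% of the 9470 gene loci. Model 1 had 21 exons, 2808 nt and a coding region of 718 codons, and ended at 33084588, which is 4 nt before the end of the gene in RefSeq. The other 4 ended 56325 nt or more before that. Models that end inside an intron of another made up 12.9% of the 15230 models of loci with at least 2 models. At least 4 of them were found in 84 (1.78%) of these loci. Only a locus with at least 5 models can show 4, since the model with the most downstream end cannot be 1 of them. The catalogue has 761 loci with at least 5 models.

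The 4 short CSTF3 models had a common form at their end. Each ran across the 5′ splice site of the third intron, which spans 33108419 to 33141666 in model 1 and with 33248 nt is the longest of its 20 introns. The median length of introns that hold such an end was 5421 nt over all genes. Models 4 and 5 both ended 234 nt into the intron, at 33141433, model 3 ended 236 nt into it, at 33141431, and model 2 ended 754 nt into it, at 33140913. Of the intronic ends in the catalogue 55.3% lay in a last exon that runs across a donor in this way, the others in a last exon that starts inside the intron.

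**Figure D3:**
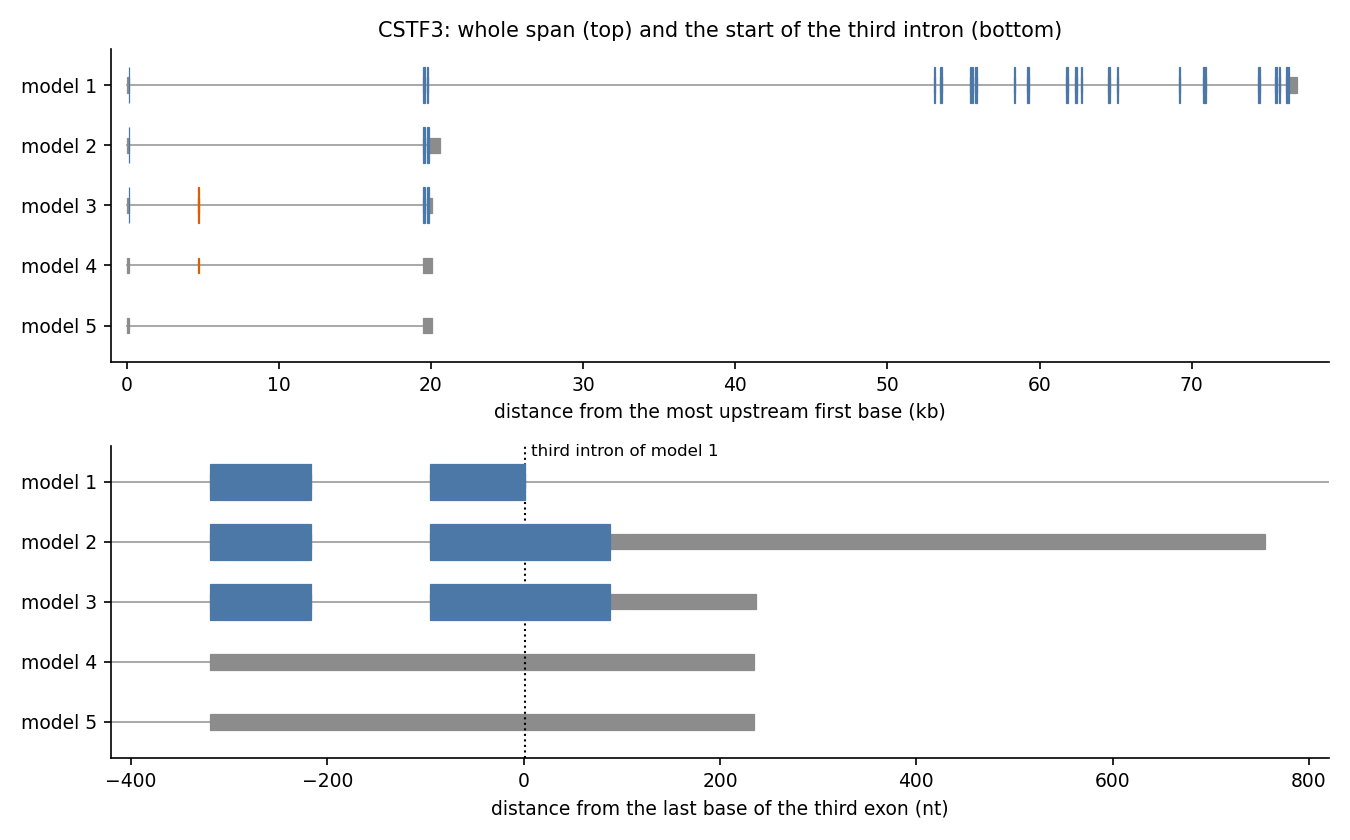
The 5 CSTF3 models (rows) by distance in kb from the most upstream first base (top) and, enlarged, by distance in nt from the last base of the third exon (bottom); tall boxes are coding, low boxes untranslated, the 96 nt cassette exon is coloured and the dotted line marks the start of the third intron. Outlines keep short exons visible in the top panel; models 2 to 5 end 754, 236, 234 and 234 nt into the intron.

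Models 2 and 3 had a coding region that continued into the intron. Both shared the first 225 coding nt of model 1, or 75 codons, read on for 29 codons in the intron and stopped at 33141580, 87 nt after the donor, in place of the 643 codons that follow the third exon in model 1. Model 2 held 104 codons and model 3, which has an additional cassette exon, 136 codons. Their 3′ untranslated regions were 667 and 149 nt long, against 499 nt in model 1. Stop and 3′ end both lay in the last exon, so that neither is a candidate for nonsense-mediated decay, a pathway that degrades mRNAs whose stop lies well upstream of an exon junction.

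The CSTF3 cassette exon was 96 nt long (33156708 to 33156803) and lay in the first intron of model 1, 4495 nt after the first exon and 14721 nt before the second. Models 3 and 4 held it and models 1, 2 and 5 skipped it. Both models with the exon ended in the third intron, as did models 2 and 5 without it. Of the models with the exon, model 3 was coding. There the exon begins after 27 coding nt, between whole codons, and adds 32 codons. In models 4 and 5 the second intron of 122 nt (33141763 to 33141884) was kept, so that both neighbouring exons, this intron and the intronic extension form 1 last exon of 554 nt. These 2 models had no coding region, and model 5 consisted of this exon and the first exon. A retained intron was found in 17.3% of gene loci with at least 2 models.

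Across the 3 genes, all 6 coding cassette exons had a length divisible by 3, against 44.1% of the coding cassette exons of the catalogue. The genes were selected with the lengths of the FIP1L1 exons known, so this count is a description. The 6 lengths ranged from 27 to 111 nt, and only those of 108 and 111 nt were above the median of 105 nt over all genes. Of the 6 exons, 2 begin between whole codons and 4 inside a codon. Of the 15 coding models, which hold 15 different coding regions, 0 had over 50 nt between the stop and a later last junction, against 3.14% of the coding models of the catalogue. At least 1 coding cassette exon was found in 33.0% of gene loci with at least 2 models, and at least 4 in 0.761%. Both shares are mostly over loci with fewer models than FIP1L1. Shares matched for the number of models are not given, so no rarity is read from them.

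**Figure D4:**
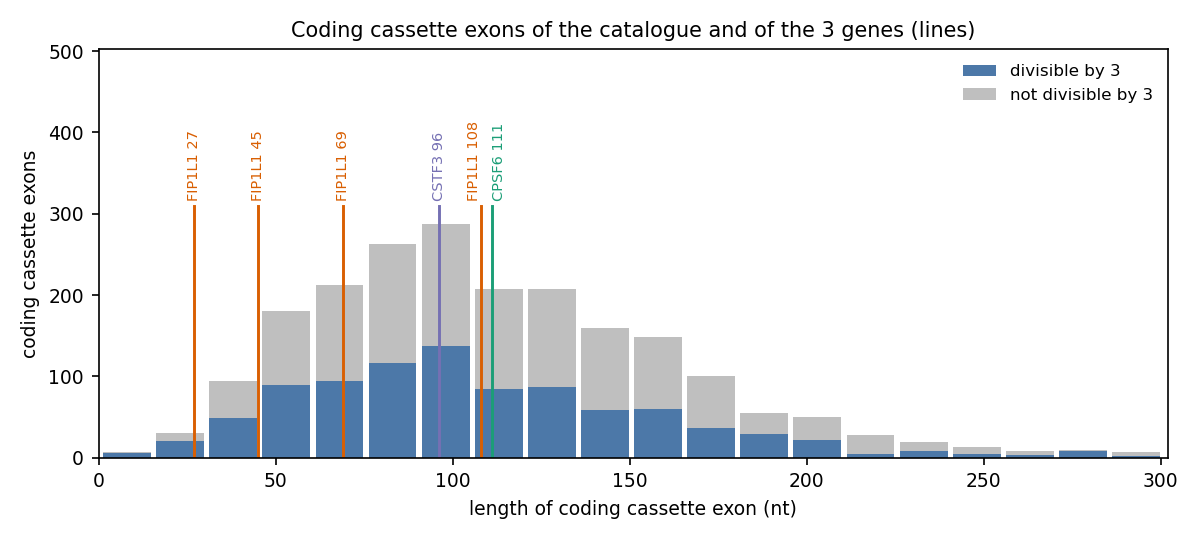
Coding cassette exons (y axis, number) by length (x axis, nt, bins of 15 nt up to 300 nt; 44 longer exons are not drawn), split into lengths divisible by 3 (blue) and not (grey). Lines mark the 4 exons of FIP1L1 (27, 45, 69 and 108 nt), the exon of CPSF6 (111 nt) and that of CSTF3 (96 nt), all of them divisible by 3.

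The other genes of the pathway had 1 to 5 models each where they had any. Of 17 further genes, 14 (82.4%) had at least 1 model and 8 at least 2, with a median of 2 models among the 14. Of the 8 with at least 2 models, the fewest that can show a cassette exon, 0 held one, coding or not, where 33.0% of all such gene loci had a coding one. That share takes in loci with more models than most of these genes had. A share matched for the number of models is not given, so no trait of the 8 genes is read from it. FIP1L1, CPSF6 and CSTF3 were chosen for their cassette exons, so no contrast is drawn with them. The partners of CPSF6 in cleavage factor I were plain: NUDT21, the RNA-binding subunit, had 1 model, and CPSF7, the alternative large subunit, had 2 that differed in a donor site. Of the partners of CSTF3 in CstF, CSTF1 had 1 model and the RNA-binding subunit CSTF2 had 2. In CPSF, CPSF2 and the endonuclease CPSF3 had 1 each, WDR33, which contacts the poly(A) signal, had 2, and CPSF4 had 3. CPSF1, CSTF2T and PCF11 had no model, which does not show that they were silent.

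Intronic 3′ ends were found in 3 of the 8 genes with at least 2 models, where the share over all such gene loci was 25.5%. PAPOLA, the canonical poly(A) polymerase gene, had 5 models with 5 last exons that do not overlap, and 3 of them ended inside an intron of another. SYMPK, the scaffold protein symplekin, and RBBP6, a ubiquitin ligase of the complex, had 1 such model each. The genes with at least 2 last exons that do not overlap were thus CSTF3, with 2, and PAPOLA, SYMPK and RBBP6, against 27.0% of all gene loci with at least 2 models. FIP1L1 and CPSF6 had 1 last exon each.

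**Figure D5:**
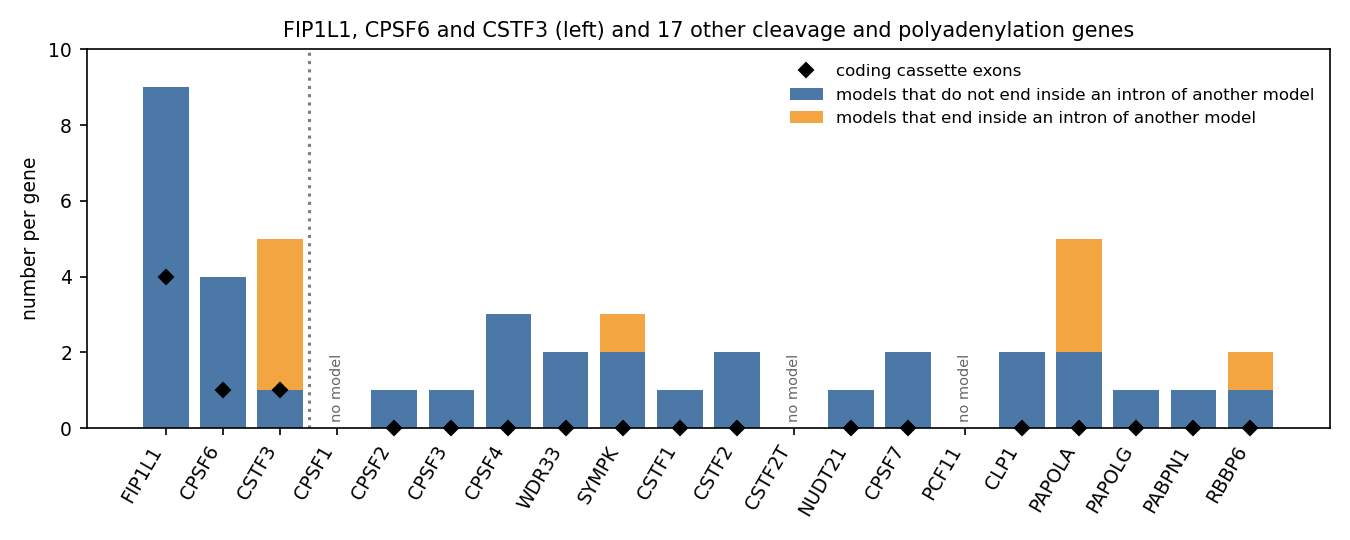
Number of models per gene (bars, y axis) for FIP1L1, CPSF6 and CSTF3 and, right of the dotted line, 17 other cleavage and polyadenylation genes; orange marks models that end inside an intron of another model and diamonds the number of coding cassette exons. CSTF3 has 4 such ends and PAPOLA 3, and the 8 other genes with at least 2 models have 0 coding cassette exons; a gene with 1 model can show none.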

How the data were processed

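A single deposited file was analysed, the transcript models that the authors made and whose lines give PacBio as source. Its values, unit "other", are positions in nt at which transcripts, exons and coding segments begin and end, counted from 1. Per the labels, the libraries are strand-specific and from polyadenylated RNA; which of them entered the models is not stated. Salmon 1.9.0 and STAR 2.7.8a appear, with no role, in the submitters' processing notes. What built the models, called coding regions or filtered them, with which annotation and build, was not given in the sources used here. Coordinates were read as GRCh38 because, of the deposited coding regions that begin inside RefSeq's GRCh38.p14 start windows, 1985 of 2036 (97.5%) began with ATG there, and 1005 of 1018 first introns (98.7%) began with GT.

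Introns were the gaps between exons. Models were grouped by gene, chromosome and strand into 9470 gene loci and numbered in file order. Events were called with Python 3.11.15, after the calling was tested on simulated data with known events. The planned tests of counts per library were not run, since no such values were analysed. Members, gene lists and definitions were chosen with earlier results of these data known. The genes named were the 3 members, 17 other cleavage and polyadenylation genes and lists of cell type markers. SLC2A8 and PHYHD1 were named after their values were seen. The depth per library is unknown.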

Additional observations from a re-analysis of the deposited data

How the results depend on the processing

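Of 27 values of the 3 genes under alternative definitions, 25 stayed within 1.5 times the reported count. Several of these could not move, so the number is no measure of stability. They were counts of 0 under a stricter rule, and FIP1L1 counts limited to coding models, since all 9 models are coding. Both values beyond 1.5 times were the coding cassette exons of CPSF6, 1 as reported. They numbered 7 when any exon inside an intron of another model counted, because the long intron of model 1 then takes in the skipped exons, and 0 when inclusion and skipping each had to be seen in at least 2 models, since the 111 nt exon rests on model 3 alone. The 4 exons of FIP1L1 and the exon of CSTF3 met that requirement, as did at least 1 exon in 304 gene loci against 1561 without it. CSTF3 had 3 last exons when they were told apart by their first base, against 2 as reported, which is just at the limit of 1.5 times. The 4 intronic ends of CSTF3 were found again at least 100 nt inside the intron. A distance of 55 nt gave 0 decay candidates in each of the 3 genes, where a longer distance could not add any. Introns of a reference annotation were not used here, and the alternatives for values per library were not run. No paired analysis was possible because the models carry no values per library. The depth behind each model is unknown: a form missing from the catalogue was not detected, and how often each listed form occurs in ESC or NPC was not measured.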
